A study of Homo sapiens with 12 samples.

Results

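Glutathione S-transferases (GSTs) were followed through 10 human genes, GSTK1, GSTA4, MGST1, MGST2, MGST3, GSTP1, GSTM2, GSTM3, GSTM4 and GSTO1, taken with every probe set whose annotated symbol is one of them. These gave 20 of the 54675 probe sets on the array, for 10 of 19775 named genes. A probe set is a group of short oligonucleotides that reads a stretch of a transcript. MGST1 had 5 probe sets, MGST3 had 3, GSTM3, GSTM4, GSTA4 and GSTO1 had 2 each, and the other genes had 1.

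The cells were HK-2, which derive from the proximal tubule of a human kidney and were immortalized to grow in culture. They were treated near confluence in a medium with added growth factor and hormones. The 4 groups were cells given a low dose of Kbr for 24 h, cells given vehicle for 24 h (24 h controls), cells given the low dose for 48 h and cells given vehicle for 48 h (48 h controls), each with 3 biological replicates and 1 array per replicate. The series belongs to a larger screen of compounds for signatures of toxicity in these cells. The sources used here give neither the dose in figures nor what Kbr stands for.

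GSTs join glutathione, the main small thiol of the cell, to electrophiles such as products of lipid peroxidation, and some also reduce peroxides with it. The soluble enzymes are sorted into classes by sequence (alpha, mu, pi, omega, kappa and others), and a separate membrane-bound family, MAPEG, holds the microsomal GSTs. In the kidney the proximal tubule is known for abundant alpha-class enzymes and for the export of conjugates, which are then trimmed to mercapturates. Several GST genes are known targets of the transcription factor NRF2, best studied in rodents, which acts through antioxidant response elements.

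Array medians lay between 2.91 and 2.99 on the log2 scale, and within a group Pearson's r between arrays was 0.982 to 0.993 over the tested genes. Precision is limited by having 3 arrays a group. Of the epithelial and kidney lineage markers 6 of 7 passed the filter on low values, among them KRT8, KRT18 and PAX8. Of the proximal tubule markers 1 of the 13 with a probe set passed, the cystine transporter subunit SLC3A1. The defining markers CUBN, LRP2, ANPEP and GGT1 lay below it on the arrays of every group, as did all 7 markers of other nephron segments and all 8 of endothelium and blood that had a probe set. Of the 7 fibroblast markers 3 passed the filter, COL1A1, DCN and LUM, with means over the 12 arrays of 7.7, 11.5 and 9.8. Epithelial markers were thus read above the filter, as were these 3 of fibroblasts, and most markers of the differentiated tubule were not. Because each array reads RNA of a whole culture, fewer cells expressing a gene and less of its RNA per cell cannot be told apart.

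The filter, a log2 value above 4 on at least 3 of the 12 arrays, was passed by 12 of the 20 GST probe sets and left 8 of the 10 genes tested. GSTM2 and GSTM4 had no probe set that passed. The 8 probe sets that did not pass lay between 2.04 and 3.36 on all arrays, and no change is read from them. Among them was the single GSTM2 probe set, 204418_x_at, at 2.04 to 2.48, and both GSTM4 probe sets, at 2.25 to 2.31 (204149_s_at) and 2.10 to 2.15 (210912_x_at). Mu-class genes are close in sequence, and names that end in _x_at or _s_at mark probe sets that can match more than 1 transcript.

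The promoters of 4 genes are shown because these genes cover the range of responses described below: read from 1 probe set per gene at 48 h, GSTK1 and GSTA4 had the largest falls, MGST3 the smallest change that passed, and GSTP1 a positive difference that did not pass. The sequences are RefSeq's (GRCh38.p14), 250 bases before to 50 bases after the annotated start, and run 5′ to 3′ along the gene. Capitals mark matches to the core of the antioxidant response element, TGACNNNGC, on either strand. Where the AP-1 site TGACTCA occurs, it lies inside such a match.
GSTK1 promoter, chr7:143263191-143263490, strand +: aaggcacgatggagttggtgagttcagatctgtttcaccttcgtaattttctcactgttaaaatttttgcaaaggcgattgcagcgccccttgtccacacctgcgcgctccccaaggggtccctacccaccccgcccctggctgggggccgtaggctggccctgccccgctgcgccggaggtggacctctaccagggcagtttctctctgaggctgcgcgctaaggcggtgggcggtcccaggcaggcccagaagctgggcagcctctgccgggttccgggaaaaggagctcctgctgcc
GSTA4 promoter, chr6:52995235-52995534, strand -: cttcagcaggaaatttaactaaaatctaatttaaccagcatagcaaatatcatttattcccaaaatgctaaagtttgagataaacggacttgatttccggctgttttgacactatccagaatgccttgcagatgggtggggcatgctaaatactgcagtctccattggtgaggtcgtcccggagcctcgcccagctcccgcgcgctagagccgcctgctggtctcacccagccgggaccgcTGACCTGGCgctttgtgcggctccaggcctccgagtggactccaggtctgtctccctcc
MGST3 promoter, chr1:165630984-165631283, strand +: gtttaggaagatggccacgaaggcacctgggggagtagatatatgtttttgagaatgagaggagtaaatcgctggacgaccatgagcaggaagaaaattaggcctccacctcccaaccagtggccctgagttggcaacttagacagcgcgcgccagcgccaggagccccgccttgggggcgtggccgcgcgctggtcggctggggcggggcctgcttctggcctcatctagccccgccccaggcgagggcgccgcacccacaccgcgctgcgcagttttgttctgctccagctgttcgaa
GSTP1 promoter, chr11:67583562-67583861, strand +: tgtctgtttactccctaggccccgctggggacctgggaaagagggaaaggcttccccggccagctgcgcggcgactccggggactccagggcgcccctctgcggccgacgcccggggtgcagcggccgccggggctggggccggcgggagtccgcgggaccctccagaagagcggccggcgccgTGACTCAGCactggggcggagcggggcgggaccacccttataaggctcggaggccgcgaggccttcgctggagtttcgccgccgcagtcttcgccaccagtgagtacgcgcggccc

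The GSTP1 match, tgactcagc, begins 66 bases upstream of the start and contains the AP-1 letters, so the same bases count for both motifs. The GSTA4 match, tgacctggc, begins 9 bases upstream, and the windows of GSTK1 and MGST3 held neither motif. Of all 35116 promoter windows of this length 13.3% held the response element core and 4.95% the AP-1 site. GSTO1, whose sequence is not shown, held 2 core matches, 226 and 161 bases upstream, and MGST1 held 1, tgacaaagc, 30 bases after the start in 1 of its 3 windows. Windows were found for 9 of the 10 genes. MGST2 is named here without one. GSTP1's window had a GC content of 74% and 36 CpG dinucleotides, against 53% and 14 for GSTA4, 63.3% and 17 for GSTK1, and medians of 58.7% and 14 over all windows. A match is a run of letters, and neither its presence nor its absence says whether a factor bound there.

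At 48 h 4 of the 8 tested GST genes were lower in Kbr cells and none rose, where 42.8% of all tested genes were called, 20.8% as falls. The kappa-class gene GSTK1 and the alpha-class gene GSTA4 were close to 2-fold lower, and the microsomal genes MGST2 and MGST3 were lower by less. GSTP1, MGST1, GSTM3 and GSTO1 did not pass. At 24 h GSTK1 was the only one of the 8 that passed, also lower. A gene was called where its adjusted p, from limma over all 10665 tested genes, was below 0.05.

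**Figure D1:**
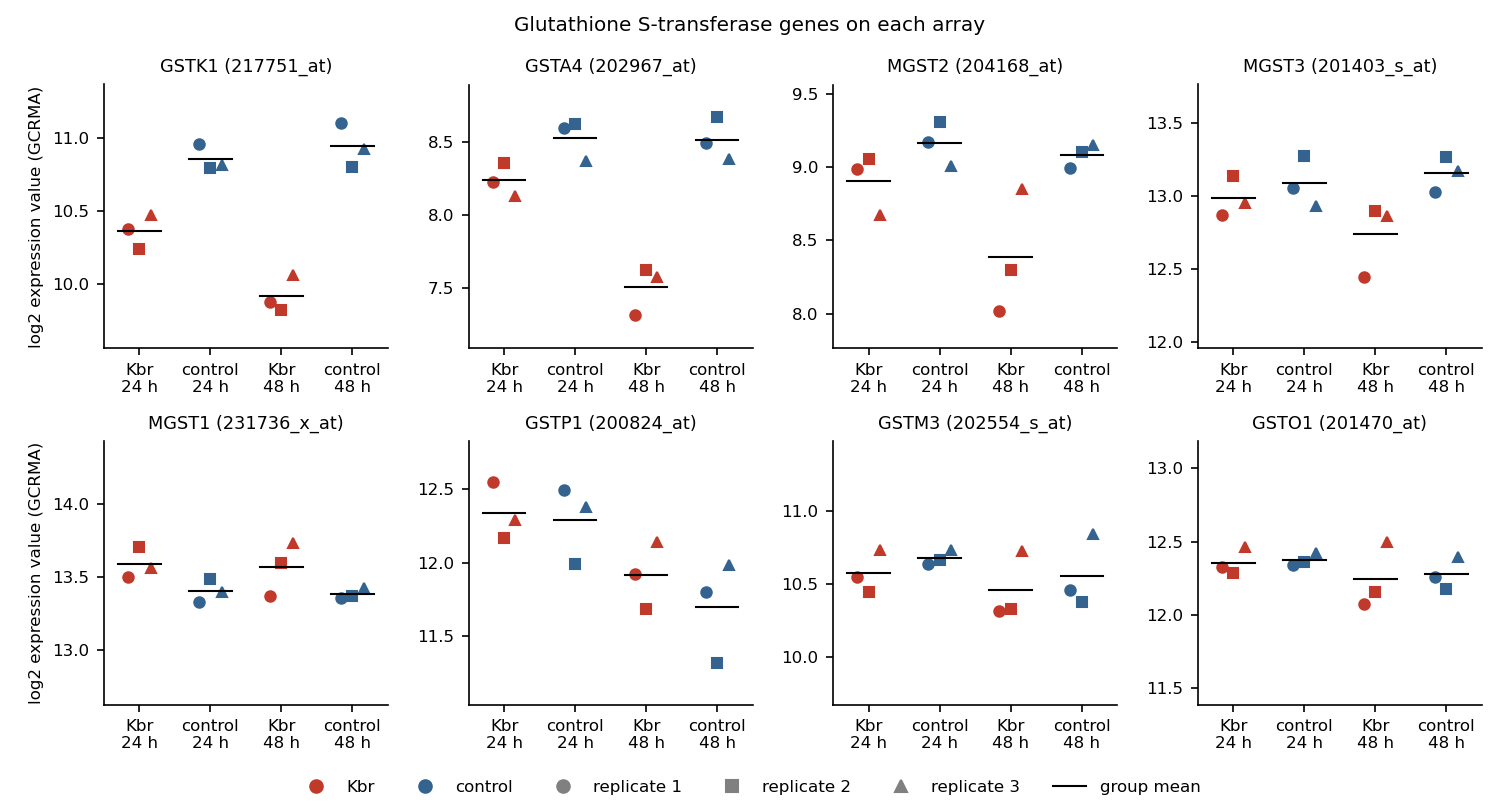
Deposited log2 values of the 8 tested GST genes on each of the 12 arrays, 1 panel per gene, with Kbr arrays in red and control arrays in blue. Marker shapes give the replicate number and black lines the means of 3 arrays. Each panel is centred on its own gene and all span the same number of log2 units, so sizes of differences, but not levels, can be set side by side. GSTK1 and GSTA4 lie below their controls on every Kbr array at both times.

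GSTK1 encodes the kappa-class enzyme, found in mitochondria and peroxisomes. At 24 h its log2 values were 10.37, 10.24 and 10.47 in Kbr cells and 10.95, 10.80 and 10.81 in controls. At 48 h they were 9.88, 9.82 and 10.07 in Kbr cells and 11.10, 10.80 and 10.92 in controls. Every Kbr array lay below every control array, with the gap wider at 48 h. The 24 h log2 change of -0.49 (standard error 0.11), a 1.41-fold fall, passed with an adjusted p of 0.0316. At 48 h GSTK1 was 2.03-fold lower (log2 change -1.02, 95% interval -1.26 to -0.78, adjusted p = 0.000114). The 4 group means ran from 9.92 in Kbr cells at 48 h through 10.36 in Kbr cells at 24 h to 10.85 in 24 h controls and 10.94 in 48 h controls, and these controls did not differ beyond their spread (adjusted p = 0.671). The 24 h call was lost without replicate 1, 2 or 3 of the Kbr cells (adjusted p = 0.0722, 0.105 and 0.0601) or replicate 1 or 2 of the controls (0.13 and 0.0727) of that time, while the 48 h call held in all 12 fits without 1 array. Those fits had 1 probe set per gene. In the limma fit on every probe set, GSTK1 was the only GST probe set called at 24 h (adjusted p = 0.0424). There, no GST probe set was called at 24 h in 8 of the 12 fits without 1 array.

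GSTA4 encodes an alpha-class enzyme with a preference for hydroxyalkenals, reactive aldehydes formed when membrane lipids are oxidised. Its log2 values at 24 h were 8.23, 8.35 and 8.13 in Kbr cells and 8.60, 8.62 and 8.37 in controls. At 48 h the Kbr arrays read 7.31, 7.62 and 7.58, against 8.49, 8.67 and 8.38 in controls. The groups did not overlap at either time, although the 24 h gap between the highest Kbr array and the lowest control was small. The 24 h difference of -0.29 (standard error 0.12) did not pass (adjusted p = 0.172). With the replicate number as a block its adjusted p was 0.0473 in the fit of 1 probe set per gene and 0.0623, not passed, in the fit on every probe set. At 48 h GSTA4 was 2.01-fold lower (log2 change -1.01, 95% interval -1.27 to -0.74, adjusted p = 0.000171), a call that held in all 12 fits without 1 array. The second GSTA4 probe set, 235405_at, lay between 2.87 and 3.36 and did not pass the filter, so the gene is read from 202967_at alone. Its mean was 7.51 ± 0.17 in Kbr cells at 48 h and 8.24 ± 0.11 in Kbr cells at 24 h, against 8.51 ± 0.14 in 48 h controls and 8.53 ± 0.14 in 24 h controls (SD, n = 3 each).

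MGST2 encodes a MAPEG enzyme that can form a cysteinyl leukotriene as well as conjugate electrophiles. Its log2 values at 24 h were 8.99, 9.05 and 8.67 in Kbr cells and 9.17, 9.31 and 9.01 in controls, and the groups overlapped. At 48 h they were 8.02, 8.30 and 8.85 in Kbr cells and 8.99, 9.10 and 9.15 in controls. All 3 Kbr arrays then lay below the controls, but replicate 3 lay much closer to them than the others, and the Kbr SD was 0.421 against 0.0789 in controls. At 48 h the log2 change was -0.69 (standard error 0.19), or 1.62-fold lower, with an adjusted p of 0.0125. With 1 probe set per gene the call held in each of the 12 fits without 1 array, at an adjusted p up to 0.0447. The 24 h difference was -0.26 (95% interval -0.67 to 0.16, adjusted p = 0.442). The order of the means was 8.39 in Kbr cells at 48 h, 8.90 in Kbr cells at 24 h, 9.08 in 48 h controls and 9.16 in 24 h controls, and the arrays of the last 3 groups overlapped.

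MGST3 encodes a MAPEG enzyme known for glutathione-dependent peroxidase activity. Its log2 values at 24 h were 12.87, 13.14 and 12.95 in Kbr cells and 13.05, 13.28 and 12.93 in controls, with overlap. At 48 h they were 12.45, 12.90 and 12.87 in Kbr cells and 13.02, 13.27 and 13.17 in controls, without overlap. MGST3 was 1.34-fold lower at 48 h (log2 change -0.42, 95% interval -0.73 to -0.10, adjusted p = 0.0358). The 24 h difference was -0.10 (95% interval -0.42 to 0.21, adjusted p = 0.722). Means were 12.74 ± 0.25 in Kbr cells at 48 h, 12.99 ± 0.14 in Kbr cells at 24 h, 13.09 ± 0.17 in 24 h controls and 13.15 ± 0.12 in 48 h controls (SD, n = 3 each), and of the comparisons made the one between treatments at 48 h passed. Of the 4 calls at 48 h this was the one that single arrays decided in the fit of 1 probe set per gene. It was lost without Kbr replicate 1 at 48 h (log2 change -0.27, adjusted p = 0.127), without control replicate 2 (0.108) or 3 (0.0785) of that time, without the filter (0.068) and with only the groups compared (0.0775). The mean over the 3 MGST3 probe sets changed by -0.18 (adjusted p = 0.0786), where the other probe sets lay between 2.12 and 2.98 and did not pass the filter.

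MGST1, the microsomal enzyme of the endoplasmic reticulum and the outer mitochondrial membrane, had 4 probe sets past the filter, and all 4 were on average higher in Kbr cells at both times, none past the test. The probe set with the highest mean, 231736_x_at, read 13.50, 13.70 and 13.56 in Kbr cells and 13.33, 13.48 and 13.40 in controls at 24 h. At 48 h it read 13.37, 13.59 and 13.73 in Kbr cells and 13.35, 13.37 and 13.42 in controls. The groups did not overlap at 24 h and overlapped at 48 h. The differences were 0.18 at 24 h (95% interval -0.05 to 0.41, adjusted p = 0.313) and 0.18 at 48 h (95% interval -0.05 to 0.41, adjusted p = 0.184), and the arrays of the same replicate number differed in that direction in 3 of 3 pairs at each time.

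The other MGST1 probe sets were tested in a fit on every probe set by itself, 22368 after the filter, of which 3.52% were called at 24 h and 37.1% at 48 h. At 24 h 1565162_s_at read 13.23, 13.09 and 12.97 in Kbr cells and 12.71, 12.69 and 12.86 in controls, without overlap, a difference of 0.34 (adjusted p = 0.145). At 48 h it read 12.85, 13.00 and 13.05 in Kbr cells and 12.44, 12.68 and 12.85 in controls, and the groups were separate by less than the rounding of these values. That difference of 0.31 had an adjusted p of 0.0681, and of 0.0453 with the replicate block, or 0.0317 without control replicate 3 at 48 h. The dimmest, 239001_at, read 5.14, 5.58 and 5.74 in Kbr cells and 4.99, 5.01 and 4.91 in controls at 24 h. It did not overlap there, and its difference of 0.52 had an adjusted p of 0.0653, of 0.0304 with the block and of 0.0225 without Kbr replicate 1 at 24 h. At 48 h its difference was 0.13 (adjusted p = 0.47). For 224918_x_at the differences were 0.16 at 24 h (adjusted p = 0.4) and 0.15 at 48 h (adjusted p = 0.261). The fifth, 240688_at, stayed between 2.99 and 3.25 and did not pass the filter. On probe sets that share a gene but differ in sequence, the differences thus ran from 0.16 to 0.52 at 24 h and from 0.13 to 0.31 at 48 h.

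GSTP1, the pi-class enzyme and a main soluble GST of many cultured cells, read 12.55, 12.17 and 12.29 in Kbr cells and 12.50, 11.99 and 12.38 in controls at 24 h. At 48 h it read 11.93, 11.68 and 12.14 in Kbr cells and 11.80, 11.32 and 11.98 in controls. The groups overlapped at both times, and replicate 2 was the lowest array of each of the 4 groups. The differences were 0.05 at 24 h (95% interval -0.39 to 0.48, adjusted p = 0.92) and 0.22 at 48 h (95% interval -0.22 to 0.65, adjusted p = 0.404). The 48 h value was 0.02 without control replicate 2 of that time, 0.36 without control replicate 3 and 0.07 with array weights, and it passed in none of the fits run. At 48 h the Kbr array was the higher one in 3 of 3 pairs of a replicate number, by 0.12, 0.37 and 0.16. Means were 12.34 ± 0.19 in Kbr cells and 12.29 ± 0.27 in controls at 24 h, and 11.92 ± 0.23 in Kbr cells and 11.70 ± 0.35 in controls at 48 h (SD, n = 3 each).

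GSTM3, the mu-class gene that was read above the filter, lay between 10.32 and 10.84 on 202554_s_at over all 12 arrays. Its differences were -0.10 at 24 h (95% interval -0.42 to 0.23, adjusted p = 0.734) and -0.10 at 48 h (95% interval -0.43 to 0.22, adjusted p = 0.612), and the 48 h value was 0.04 without control replicate 3 of that time. GSTO1, an omega-class enzyme with thioltransferase activity that also reduces dehydroascorbate, lay between 12.08 and 12.50 on 201470_at. Its differences were -0.02 at 24 h (95% interval -0.27 to 0.24, adjusted p = 0.955) and -0.03 at 48 h (95% interval -0.29 to 0.22, adjusted p = 0.852). The second GSTO1 probe set, 1557915_s_at, gave 0.10 at 24 h (adjusted p = 0.716) and 0.03 at 48 h (adjusted p = 0.887). For both genes the 48 h intervals include a change of the size seen for MGST2 at 24 h and exclude one of the size seen for GSTK1 at 48 h. At 24 h the sign for GSTM3 turned to 0.05 and that for GSTO1 to 0.04 when all probe sets of the gene were averaged.

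**Figure D2:**
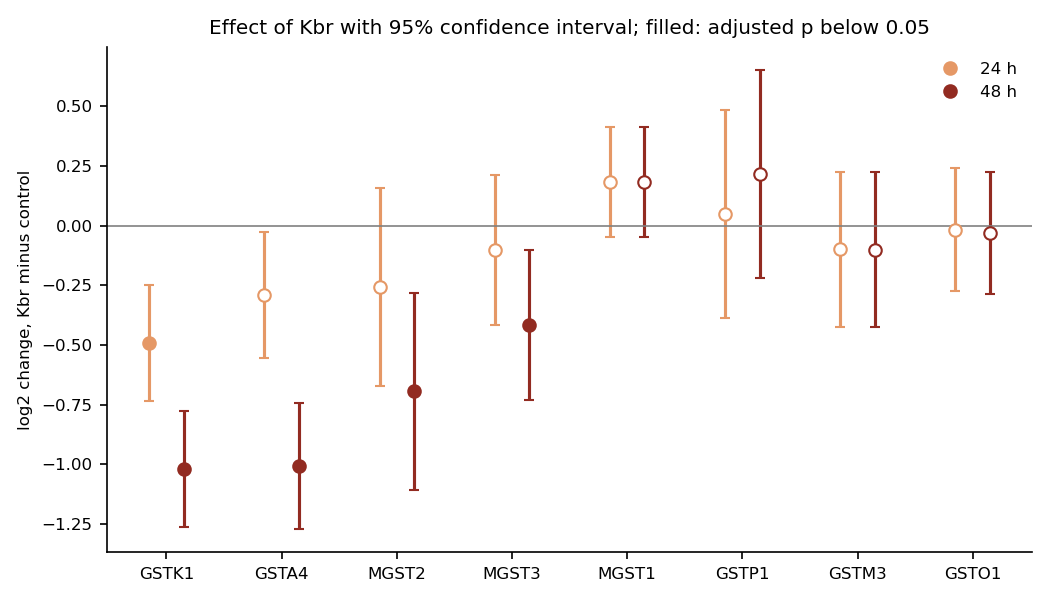
Log2 change, Kbr minus control, of the 8 tested GST genes at 24 h and 48 h, with 95% confidence intervals of limma as bars. Filled points had an adjusted p below 0.05. The intervals of GSTK1, GSTA4, MGST2 and MGST3 at 48 h lie below 0, and those of MGST1, GSTP1, GSTM3 and GSTO1 span it at both times.

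Read against all genes, the counts were these. At 24 h 1 of the 8 fell and none rose, while 5.74% of all tested genes were called, 2.48% as rises and 3.25% as falls. At 48 h 4 of the 8 fell and none rose, while 42.8% of all genes were called, 22.0% as rises and 20.8% as falls. Without adjustment, 2 of the 8 fell at 24 h and 4 at 48 h at a p below 0.05, and again none rose by limma. The share of all genes below that unadjusted p was not counted. At 48 h it is at least the 42.8% called after adjustment. The share called at 48 h, 4 of 8, is near the background, and the direction of the calls, on 4 genes, was not tested. The median log2 change of the 8 was -0.10 at 24 h against -0.02 over all tested genes, and -0.26 at 48 h against -0.004 over all. The median size of the change, whatever its sign, was 0.32 among the 8 at 48 h and 0.35 over all genes. Kbr and control arrays did not overlap for 3 of the 8 at 24 h, against 31.8% of all genes, and for 4 of the 8 at 48 h, against 50.9%. At 48 h 6.04% of all tested genes had a change lower than that of GSTK1, 6.21% lower than GSTA4, 12.2% lower than MGST2 and 22.4% lower than MGST3.

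**Figure D3:**
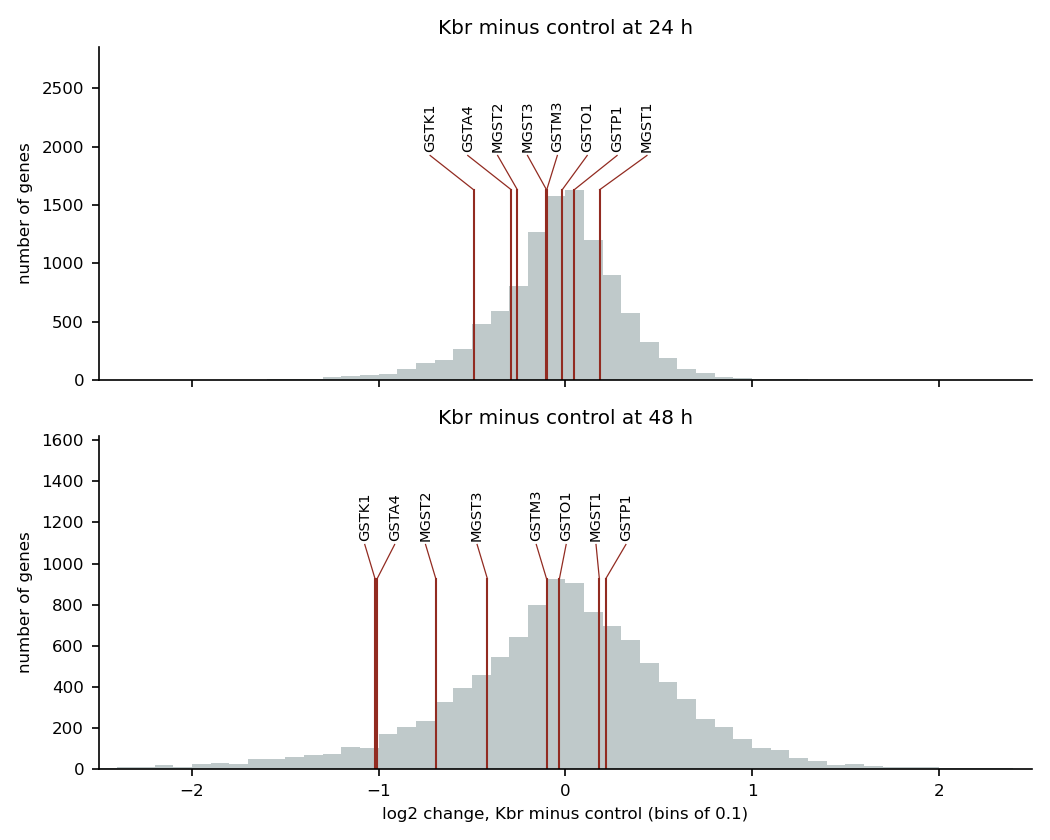
Distribution of the log2 change, Kbr minus control, over 10665 tested genes at 24 h (top) and 48 h (bottom), as counts of genes in bins of 0.1, with the 8 GST genes marked by vertical lines whose height carries no value. GSTK1 and GSTA4 lie in the lower tail at 48 h, with 6.04% and 6.21% of genes below them, and the other genes lie nearer the centre.

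Arrays of the same replicate number deviated together, so each gene is also given by pairs. For GSTK1 the Kbr array differed from its control by -0.58, -0.56 and -0.34 in pairs 1, 2 and 3 at 24 h and by -1.22, -0.98 and -0.86 at 48 h. For GSTA4 the differences were -0.37, -0.27 and -0.24 at 24 h and -1.18, -1.04 and -0.81 at 48 h. Both genes were thus lower in 3 of 3 pairs at each time. Groups that do not overlap must give this under any pairing, as also for MGST2 and MGST3 at 48 h. It therefore adds nothing to that separation. The share of all genes with 3 pairs in 1 direction was not counted. MGST2 differed by -0.19, -0.25 and -0.33 at 24 h, lower in 3 of 3 pairs although the groups overlapped, and by -0.98, -0.81 and -0.30 at 48 h. MGST3 was lower in 2 of 3 pairs at 24 h and in 3 of 3 at 48 h, by -0.58, -0.37 and -0.30. In these 4 genes pair 3 had the smallest gap of the 3 pairs at 48 h. GSTM3 was lower in 2 of 3 pairs at 24 h and in 3 of 3 at 48 h, by -0.14, -0.05 and -0.12. GSTO1 on 201470_at was lower in 2 of 3 pairs and higher in 1 at each time. With the replicate number as a block 2 GST genes fell at 24 h, GSTK1 and, in the fit of 1 probe set per gene, GSTA4, where 24.4% of all genes were called, and the same 4 as without it fell at 48 h, where 57.5% were called.

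**Figure D4:**
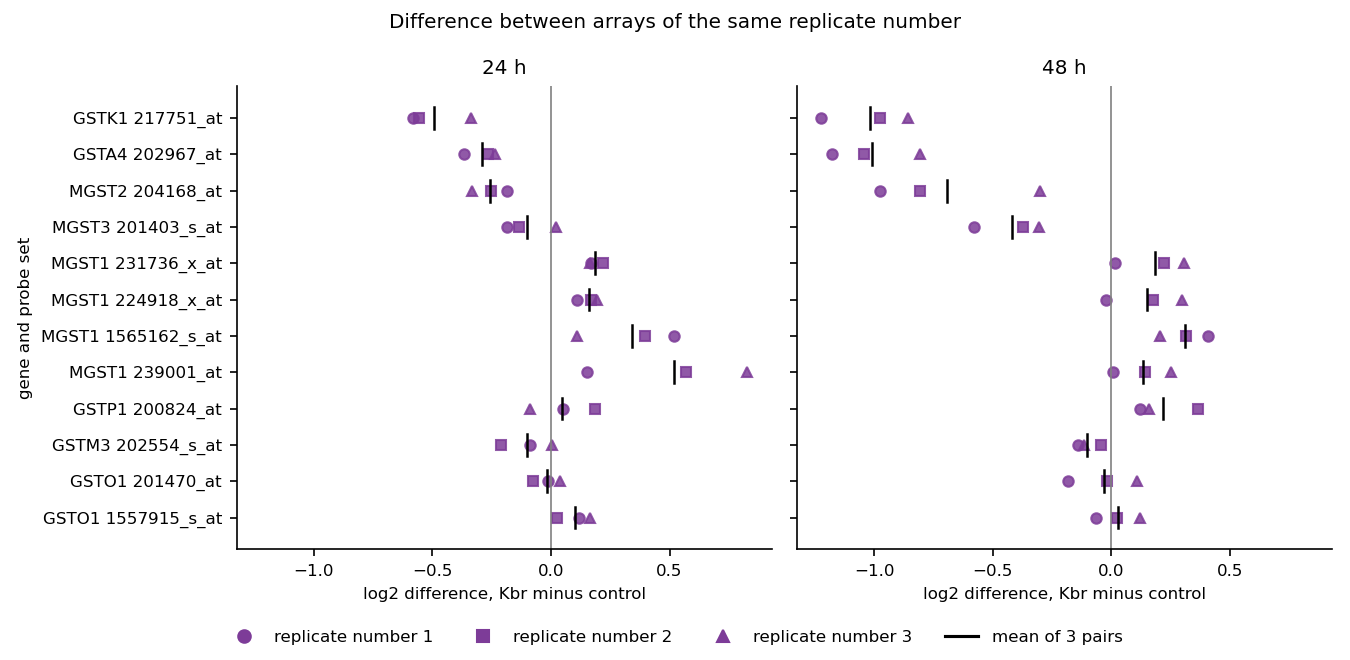
Difference in log2 value between the Kbr and the control array of the same replicate number, for the 12 GST probe sets that passed the filter, at 24 h (left) and 48 h (right). Marker shapes give the replicate number and black ticks the mean of the 3 pairs. All 3 pairs lie below 0 for GSTK1, GSTA4 and MGST2 at both times and for MGST3 and GSTM3 at 48 h, and above 0 for GSTP1 at 48 h, for GSTO1 probe set 1557915_s_at at 24 h and for all 4 MGST1 probe sets at both times except 224918_x_at at 48 h.

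The next comparison asked whether the effect of Kbr differed between the times. The 48 h change minus the 24 h change was -0.72 for GSTA4 (95% interval -1.09 to -0.34) and -0.53 for GSTK1 (95% interval -0.87 to -0.19) on the log2 scale. Neither difference passed over all genes by limma (adjusted p = 0.113 for GSTA4 and 0.163 for GSTK1), and none of the 8 did, where 0.141% of all genes were called. Unadjusted, these 2 of the 8 had a p below 0.05, a threshold at which all genes were not counted. With the replicate block both passed (adjusted p = 0.0204 and 0.0358), where 7.36% of all genes were called, and GSTA4 also passed without Kbr replicate 3 at 48 h (adjusted p = 0.0484). MGST2 and MGST3 had differences of -0.44 (adjusted p = 0.447) and -0.32 (adjusted p = 0.473).

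Changes with time were then read within each treatment. Among Kbr cells GSTA4 fell by 0.73 on the log2 scale at 48 h relative to 24 h (adjusted p = 0.00652) and GSTK1 fell by 0.44 (adjusted p = 0.0313), and the arrays of the 2 times did not overlap for either. These were 2 of the 8, where 10.6% of all genes were called. The GSTK1 call was lost without Kbr replicate 1 or 3 of 24 h (adjusted p = 0.0842 and 0.114), without Kbr replicate 1 or 2 of 48 h (0.096 and 0.12) and with only the groups compared (0.0885). The difference of MGST2 was -0.52 (adjusted p = 0.0978), with an adjusted p of 0.00685 without Kbr replicate 3 at 48 h.

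Among control cells none of the 8 passed between the times by limma, where 3.29% of all genes were called. Unadjusted, 1 of the 8 had a p below 0.05, a threshold at which all genes were not counted. That gene was GSTP1, whose 48 h controls lay below all 24 h controls, with a difference of -0.59 (95% interval -1.02 to -0.15, adjusted p = 0.125). With the replicate block this fall passed (adjusted p = 0.00682), as 1 of the 8 where 22.5% of all genes were called. In Kbr cells GSTP1 differed by -0.42 between the times (adjusted p = 0.189, and 0.0202 with the block), where the block called 3 of the 8 and 30.7% of all genes. GSTP1 thus had lower values at 48 h in both treatments, while GSTK1 and GSTA4 differed between controls of the 2 times by 0.09 and -0.01 (adjusted p = 0.671 and 0.968).

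The other genes of the GST superfamily, among them the theta, zeta and omega classes and the GST-fold chloride channel proteins, were read beside these. Of 25 genes 22 had a probe set and 9 passed the filter. GSTA1, GSTA3, GSTM1 and GSTM5 did not pass it. At 24 h 3 of the 9 fell and none rose by limma, where 3.25% of all tested genes fell and 2.48% rose. Unadjusted, 4 of the 9 fell and 2 rose, at a threshold for which the share of all genes was not counted. GSTO2, the second omega-class gene, averaged 8.49 in Kbr cells and 9.24 in controls (log2 change -0.75, adjusted p = 0.00889). GSTZ1, which isomerises maleylacetoacetate in tyrosine breakdown, averaged 7.53 in Kbr cells and 8.27 in controls (-0.75, adjusted p = 0.0178). GSTT1, a theta-class enzyme, averaged 6.71 in Kbr cells and 7.47 in controls (-0.76, adjusted p = 0.0387).

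At 48 h 5 of the 9 fell and 2 rose, where 20.8% of all tested genes fell and 22.0% rose. GSTO2 averaged 8.11 in Kbr cells and 9.35 in controls (log2 change -1.24, adjusted p = 5.95e-05), GSTZ1 6.95 and 8.22 (-1.27, adjusted p = 0.000128) and GSTT1 6.55 and 7.65 (-1.09, adjusted p = 0.000984). The other falls, named after their values were seen, were those of GSTCD (-0.53) and CLIC1 (-0.29). GDAP1, an outer mitochondrial membrane protein with a GST fold, averaged 8.53 in Kbr cells and 7.61 in controls (0.92, adjusted p = 0.00103). The chloride channel family gene CLIC2 averaged 7.06 in Kbr cells and 5.90 in controls (1.15, adjusted p = 0.0154). The medians of the 9 were -0.17 at 24 h and -0.29 at 48 h. The 24 h call of GSTO2 held in all 12 fits without 1 array. With averaged probe sets its change was -0.33 (adjusted p = 0.0327). That of GSTT1 held in 5 and was lost without any Kbr array or control replicate 1 or 2 of 24 h, or control replicate 2 or 3 of 48 h (adjusted p up to 0.151). It was also lost without the filter (0.0798), on every probe set (0.0506) and with only the groups compared (0.0557), and its change was -0.39 (0.0396) with averaged probe sets. That of GSTZ1 held in 8 and was lost without Kbr replicate 2 or 3 or control replicate 1 or 2 of 24 h (up to 0.0805). The 48 h call of CLIC2 was lost without Kbr replicate 3 (0.0539) or control replicate 1 or 2 (0.0593 and 0.0505) of that time. Its 24 h difference of 1.15 (adjusted p = 0.0615) passed with the block (0.0225) and without control replicate 1 or 3 of 48 h (0.0405 and 0.0187).

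All 11 genes of the list that supplies glutathione passed the filter, and 2 rose and none fell by limma at 24 h, with 5 rises and 3 falls unadjusted, while 6 rose and 2 fell at 48 h. After adjustment 2.48% of all tested genes rose and 3.25% fell at 24 h, and 22.0% rose and 20.8% fell at 48 h. The share of all genes below the unadjusted threshold was not counted. GCLM, the modifier subunit of glutamate-cysteine ligase, averaged 12.36 in Kbr cells and 9.82 in controls at 48 h (adjusted p = 2.21e-05). The catalytic subunit GCLC averaged 10.80 and 8.90 (log2 change 1.90, adjusted p = 0.000218), and the glutathione reductase GSR 10.27 and 9.60 (0.67, adjusted p = 0.00284). The subunits of the cystine importer, SLC7A11 and SLC3A2, changed by 2.91 and 2.52 (adjusted p = 0.000424 and 0.000878), and the cystathionine lyase CTH, named after its value was seen, by 2.62. The falls were those of GSS, which completes glutathione, with 10.53 in Kbr cells and 11.08 in controls (-0.54, adjusted p = 0.00181), and CBS, the first enzyme of transsulfuration, with 7.82 and 9.10 (-1.28, adjusted p = 0.00516). Median changes of the list were 0.54 at 24 h and 0.67 at 48 h.

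At 24 h the rises of that list were GCLM (adjusted p = 0.00168) and GSR (log2 change 0.59, adjusted p = 0.0338). With the block 5 rose and 3 fell at 24 h, where 24.4% of all genes were called. These list genes included GCLC (0.67, adjusted p = 0.116, and 0.0409 with the block) and CBS (-1.07, adjusted p = 0.0548, and 0.00261 with the block). SLC7A11 (1.28, adjusted p = 0.094, and 0.0301 with the block), SLC3A2 (1.16, 0.121 and 0.0333) and GSS (-0.34, 0.0718 and 0.0117) also passed with the block. CBS and GCLC also passed without Kbr replicate 1 or 3 at 48 h (adjusted p = 0.0212 and 0.0348 for CBS, 0.0391 and 0.0263 for GCLC), and SLC7A11 without Kbr replicate 3 at 48 h (0.0313). The call of GSR held in 7 of the 12 fits without 1 array, and was lost without any Kbr array of 24 h or without control replicate 1 or 2 of 24 h (adjusted p up to 0.108). It was also lost without the filter (0.0573), with averaged probe sets (0.0577) and with only the groups compared (0.0829). This list overlaps known NRF2 targets, and its members were picked with earlier results of these arrays known.

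Of 23 genes of conjugate export and the mercapturate pathway 20 had a probe set and 10 passed the filter. The γ-glutamyltransferase GGT1, the aminopeptidase ANPEP and the exporters ABCC2 and ABCG2 lay below it. After adjustment 3.25% of all tested genes fell and 2.48% rose at 24 h, and the unadjusted shares of all genes were not counted. Of these 10 genes 1 fell and none rose by limma at 24 h, and unadjusted 3 fell and 2 rose. It was the exporter ABCC3, with 8.41 in Kbr cells and 9.34 in controls (log2 change -0.93, adjusted p = 0.0191), which held in 8 of the 12 fits without 1 array (lost without Kbr replicate 1 or 3 or control replicate 1 or 2 of 24 h, adjusted p up to 0.0839). With averaged probe sets its change was -0.38 and did not pass (adjusted p = 0.0642). At 48 h 3 rose and 2 fell, where 22.0% of all tested genes rose and 20.8% fell. ABCC3 averaged 8.21 in Kbr cells and 9.47 in controls (-1.26, adjusted p = 0.000451) and the exporter ABCC4 10.62 and 11.14 (-0.52, adjusted p = 0.00392). The leucine aminopeptidase LAP3 rose by 0.48 (adjusted p = 0.00464) and CHAC2, which degrades glutathione, by 1.00 (adjusted p = 0.00109). CHAC1, a related enzyme named after its value was seen, rose by 1.86. KYAT1, a cysteine conjugate lyase, differed by -0.82 (adjusted p = 0.0823) and passed with the block (adjusted p = 0.000904) or without control replicate 2 at 48 h (0.0496). At 24 h KYAT1 and CHAC2 did not pass without the block and passed with it, with differences of -0.95 (adjusted p = 0.133, and 0.00273 with the block) and 0.51 (0.105 and 0.0209). The medians were 0.08 at 24 h and -0.02 at 48 h.

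Other conjugating and hydrolysing enzymes, read as a comparison within xenobiotic metabolism, were called in both directions. Of 17 genes 14 had a probe set and 9 passed the filter, and 2 rose and none fell by limma at 24 h, with 3 rises and no fall unadjusted. After adjustment 2.48% of all tested genes rose and 3.25% fell at 24 h, and the unadjusted shares were not counted. At 48 h 3 rose and 3 fell, where 22.0% of all tested genes rose and 20.8% fell. The microsomal epoxide hydrolase EPHX1 averaged 12.67 in Kbr cells and 11.71 in controls at 48 h (log2 change 0.97, adjusted p = 0.00503). Its 24 h difference of 0.62 (adjusted p = 0.116) passed with the block (0.00547). The carbonyl reductase CBR1 averaged 11.29 in Kbr cells and 10.74 in controls at 24 h (0.54, adjusted p = 0.0382) and 11.07 and 10.54 at 48 h (0.53, adjusted p = 0.00819). CBR3 passed at 24 h alone (0.58, adjusted p = 0.00963, against 0.02 and adjusted p = 0.888 at 48 h), and its effects at the 2 times differed by -0.56 (adjusted p = 0.113, and 0.0298 with the block). The acetyltransferase NAT1 rose by 0.79 at 48 h (adjusted p = 0.00627). The sulfotransferase SULT1A1 and UGT8, a galactosyltransferase of the UGT family, differed by -0.76 and -0.95 (adjusted p = 0.000818 and 0.00175). NNMT, named after its value was seen, differed by -0.85 (adjusted p = 0.0499). That NNMT call lay just below the threshold, and its fits without 1 array are not given here. The 24 h call of CBR1 held in 5 of the 12 fits without 1 array (lost without any Kbr array or control replicate 1 or 2 of 24 h, or replicate 2 of either 48 h group, adjusted p up to 0.138). It was also lost without the filter (0.0618) and on every probe set (0.0507). The medians were 0.33 at 24 h and 0.02 at 48 h.

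**Figure D5:**
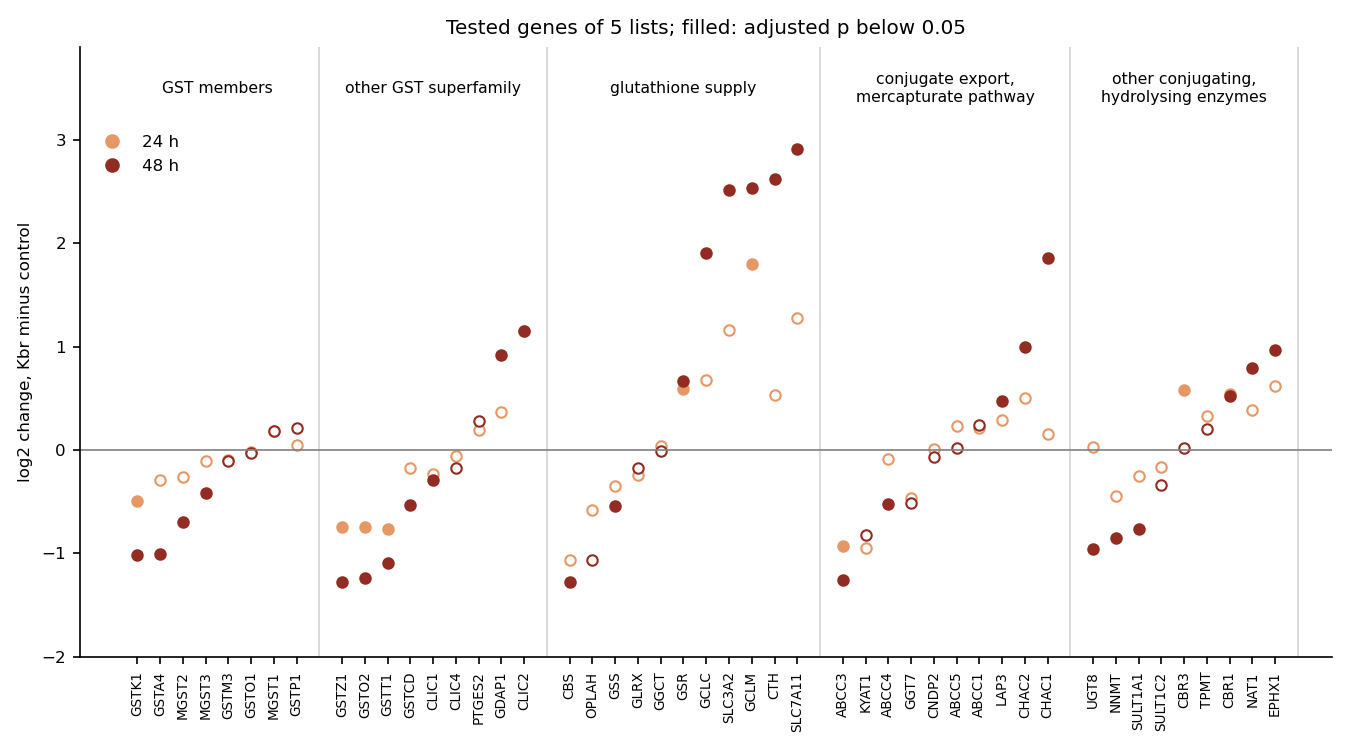
Log2 change, Kbr minus control, of every tested gene of 5 lists, ordered within a list by the 48 h change, at 24 h (light) and 48 h (dark). Each point is a fitted difference of means of 3 arrays, without an error bar, and filled points had an adjusted p below 0.05. At 48 h none of the 8 GST genes and 6 of the 11 glutathione supply genes were called higher, against 22.0% of all tested genes, and the difference between the lists was not tested.

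The genes whose profile over the 12 arrays was nearest to that of GSTK1 were FAHD2A, SPAG7 and NEK6. Nearness is the mean absolute difference of the log2 values after each gene's own mean is taken off. It was 0.0634, 0.071 and 0.0815 for these, against a median of 0.41 over all tested genes. Their changes at 48 h were -1.0, -0.96 and -1.06. For GSTP1, the nearest were PKMYT1, TUBG1 and PRR11, at 0.0907, 0.092 and 0.101, against a median of 0.34, and none of these was called in a Kbr comparison. Nearness was taken over the same 12 arrays that give the Kbr changes. Changes close to those of GSTK1 and GSTP1 therefore follow from the choice of genes.

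Other measures moved alongside these results. SLC3A1, the proximal tubule marker past the filter, changed by -1.34 at 24 h and -1.91 at 48 h on the log2 scale, falls that passed. The summed level of the 13 proximal tubule markers was 7.63 to 7.94 in Kbr cells and 8.36 to 9.08 in controls at 24 h. At 48 h it was 7.88 to 8.13 and 9.09 to 9.97. With 12 of these 13 below the filter, that sum largely repeats SLC3A1 and does not show a fall of the other markers. Of the 6 epithelial markers past the filter 2 fell at 24 h and 3 at 48 h, and none rose by limma. Over all tested genes 3.25% fell at 24 h and 20.8% at 48 h. The markers that fell were CDH1 (-1.75 at 24 h and -1.49 at 48 h), KRT19 (-0.85 and -0.96) and, at 48 h, EPCAM (-0.41). With the block 3 fell and 1 rose at 24 h, and 4 fell and 2 rose at 48 h. Of all genes the block called 24.4% at 24 h and 57.5% at 48 h. KRT8 was the further fall, with differences of -0.53 at 24 h and -0.66 at 48 h. The rises with the block were PAX8, with differences of 0.53 at 24 h and 0.40 at 48 h (adjusted p = 0.0133 and 0.0163 with the block), and KRT18, with 0.36 at 48 h (0.0179). The summed level of the 7 epithelial markers, the log2 of their summed signals, was 14.49 to 14.73 in Kbr cells and 14.76 to 15 in controls at 24 h, and 14.33 to 14.72 and 14.61 to 14.96 at 48 h. The lists of other nephron segments and of endothelium and blood stayed between 5.57 and 5.72 and between 5.52 and 5.64 over all groups. Of the 7 fibroblast markers COL1A1, DCN and LUM passed the filter, while COL1A2, COL3A1, PDGFRB and THY1 lay below it. Of the first 3, 2 fell at 24 h and all 3 at 48 h, and their list's summed level was 10.56 to 11.08 in Kbr cells and 12.39 to 12.46 in controls. At 24 h it was 11.83 to 12.31 in Kbr cells and 12.47 to 12.99 in controls. RNA quality was read from ACTB, whose 3′ minus 5′ difference was 0.854 ± 0.11 in Kbr cells and 0.794 ± 0.17 in controls at 24 h, and 0.909 ± 0.15 and 0.815 ± 0.19 at 48 h (SD, n = 3 each). The part of these measures in the GST results was not tested.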

How the data were processed

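Expression of HK-2 cells was read on 12 Affymetrix arrays, 3 per group, from biotin-labelled RNA per the labels' protocols. Per the submitters' processing notes the authors used GCRMA to produce the deposited log2 values. That method corrects for probe-sequence background, equalises arrays by quantiles and pulls weak probe sets to a floor. Its version and settings are not stated in what was used here, and 0 columns were left unused. Each named gene was read from its brightest probe set on average. Genes above a log2 value of 4 on at least 3 arrays were kept, 10665 in number.

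The 12 arrays entered 1 linear model with a mean per group (R 4.3.3, limma 3.58.1, functions lmFit and eBayes), with two-sided p-values adjusted by Benjamini-Hochberg over all tested genes and a threshold of 0.05. A second fit tested every probe set by itself. Counts by unadjusted p are given without a share over all genes, so no excess is read from them. An exact test of 3 against 3 arrays cannot go below p = 0.1. Standard errors and 95% intervals are limma's, SDs those of 3 arrays, and p-values measure only the spread between these cultures. Same-numbered arrays of different groups deviated together (r of 0.28 to 0.70 over 18 pairs), so the numbers were taken as pairs. Calls are those of the fit without pairing, and the blocked value is given beside a gene named by the rule below where it changes a call.

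The 10 genes were named whatever their values, with up to 4 tested genes of smallest p per list and Kbr comparison, and the 3 nearest profiles of the GST genes with the highest and the lowest change at 48 h, read from 1 probe set per gene. The genes, lists and this rule were chosen with earlier results of these data known. Alternatives were the replicate block, no filter, a floor of 6, repeated quantile normalization, the array median subtracted, averaged probe sets, unmerged probe sets, fits of the compared groups alone, a trended robust variance, weighted arrays (statmod 1.5.0) and dropping each array. For single probe sets, the block and the left-out arrays were added after seeing the data.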

Additional observations from a re-analysis of the deposited data

How the results depend on the processing

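Of 856 values of named genes under the settings that kept all 12 arrays, 801 kept their direction and their side of the threshold, 34 newly passed, 14 no longer passed and 7 changed sign, all of them differences close to 0 that had not passed. With probe sets averaged per gene, the 24 h change was 0.05176 for GSTM3, 0.04249 for GSTO1 and -0.03438 for UGT8. At 48 h changes that passed either way were then smaller by over 1.5 times, -0.52 for GSTA4, -0.60 for GSTT1, -0.62 for GSTO2, -0.48 for ABCC3, -0.32 for ABCC4, -0.44 for SULT1A1, -0.83 for CBS and 1.24 for GCLC. With the array median subtracted the difference between the effects was 0.01011 for GSTM3 and 0.009625 for MGST1, and with quantile normalization repeated the control time difference was 0.008101 for GSTA4 and 0.00925 for MGST1.

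With the replicate number as a block 2 GST genes were called at 24 h in place of 1, 2 in place of 0 for the difference between the effects, 1 in place of 0 between control times, and 3 in place of 2 between Kbr times. Over member probe sets the block called 2, 2, 1 and 4, in place of 1, 0, 0 and 2. At 48 h it called 4 genes, as without it, and 5 member probe sets in place of 4. The added call was a rise of the MGST1 probe set 1565162_s_at (adjusted p = 0.0453). Of all genes the block called 24.4%, 7.36%, 22.5% and 30.7% in the same order of comparisons, and 57.5% at 48 h. The share of all probe sets called with the block is not given here, so no excess is read from the probe set counts. Between Kbr times 1 gene was called with only the groups compared and 4 with array weights. The cause of these shifts was not tested.

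Leaving out 1 array at a time, 0 to 1 GST genes were called at 24 h, 3 to 4 at 48 h (2 to 4 of the member probe sets), 0 to 1 for the difference between the effects, 0 between control times and 1 to 3 between Kbr times. The 24 h change ranged over -0.1029 to 0.1521 for GSTP1, -0.06868 to 0.02074 for GSTO1 and -0.04759 to 0.1277 for UGT8. At 48 h it ranged over -0.2345 to 0.04082 for GSTM3, -0.1589 to 0.05239 for GSTO1, -0.01889 to 0.0752 for CBR3 and -0.09199 to 0.1295 for the GSTO1 probe set 1557915_s_at. The difference between the effects ranged over -0.0238 to 0.3193 for GSTP1, -0.1349 to 0.1404 for GSTM3, -0.1422 to 0.06908 for GSTO1 and -0.08457 to 0.09541 for MGST1. Between control times the ranges were -0.09277 to 0.05169 for GSTA4, -0.05807 to 0.01986 for MGST1 and -0.009527 to 0.1609 for MGST3, and between Kbr times -0.1054 to 0.07457 for MGST1.

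Over all genes, counts that moved by over 1.5 times were, at 24 h (612), 2602 with the block, 1388 with array weights and 81 to 767 without 1 array. For the difference between the effects (15) they were 785 with the block, 308 with weights, 32 without a filter, 9 with a floor of 6, 8 with the median subtracted, 3 with averaged probe sets and 0 to 479 without 1 array. Between control times (351) they were 2404 with the block, 185 without a filter and 9 with only the groups compared, with 21 to 558 without 1 array. Between Kbr times (1135) they were 3273 with the block, 726 without a filter, 224 with only the groups compared, 3317 with weights and 288 to 2206 without 1 array. At 48 h (4564) the count over every probe set was 8292, on more features. Values near the floor of the background model carry no order.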

Other observations

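Among the GST probe sets below the filter, single arrays stood above their group, and 4 such cases, chosen without a set cutoff, are given here. GSTM3 probe set 235867_at read 2.24, 2.26 and 2.81 in Kbr cells at 24 h, against 2.22, 2.23 and 2.24 in controls. GSTM2 probe set 204418_x_at read 2.06, 2.16 and 2.16 in Kbr cells at 24 h, against 2.08, 2.08 and 2.48 in controls. GSTA4 probe set 235405_at read 2.91, 3.04 and 3.14 in Kbr cells at 24 h, against 2.90, 3.36 and 2.93 in controls. MGST3 probe set 244122_at read 2.12, 2.13 and 2.13 in Kbr cells at 48 h, against 2.77, 2.12 and 2.13 in controls. The arrays concerned have replicate number 3, 3, 2 and 1, and none of these values reached the filter. The cause of these values was not tested.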
